A study of Homo sapiens with 4 samples.

Results

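Processed pseudogenes of H1299 cells, leaving out those whose symbol names a ribosomal protein or mitochondrial gene, were examined after exposure to HgCl2. They were taken from the table of raw counts as the transcripts that GENCODE types as processed_pseudogene or transcribed_processed_pseudogene and that have a mean of at least 20 counts over the 4 columns. Left-out symbols were those of cytosolic and mitochondrial ribosomal proteins and of mitochondrial genes, and a ribosomal copy without such a symbol stays in. This gave 385 of the 10640 processed pseudogenes in a table of 227368 transcripts. A further 129 passed the same count with a left-out symbol, and 8364 with other symbols lay under 20 counts. Members were thus chosen by their mean count, and the height of their counts is no result. The line H1299 derives from a non-small-cell carcinoma of the human lung. One group was treated with 5 μM HgCl2 for 48 h and the other, its control, with the solvent, 0.6% EtOH, and each has 2 columns labelled replicates 1 and 2. The treatment text of the labels gives 5 μM for all 4 samples, whereas the methods of the study give the control cells no HgCl2. Poly-A RNA was sequenced, and counts were made per transcript on GRCh38.

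Totals were 5051958 and 5053120 counts for EtOH and 4722772 and 4720978 for HgCl2. Columns of 1 group differed by less than sampling noise. Over the 385 members the variance of their difference was 0.434 times that of counting noise between the EtOH columns and 0.458 times between the HgCl2 columns, against 34.6 times between a column of each group. Each group was therefore counted as 1 sample with the mean of its columns as its value, no p-value is given, and every difference compares 1 sample with 1 sample. The study describes its libraries as made from independent replicates, a spread that columns this close do not give. Of the markers of the line, VIM had 620, 628, 501 and 511 counts in EtOH replicates 1 and 2 and HgCl2 replicates 1 and 2, the order of all counts given below, and HMGA2 between 34704 and 94083, while PTPRC, CD3E and ALB had 0 in every column. KRT8 had 53, 58, 4 and 4, CDH2 had 13, 13, 1 and 2, KRT18 had between 18 and 31 and SOX2 between 49 and 73. PECAM1 had at most 5 and COL1A1 at most 18.

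A processed pseudogene is a DNA copy of a messenger RNA that was written back into the genome by the reverse transcriptase of LINE-1 elements. Such copies lack introns and the promoter of the parent gene and usually carry stop codons or frameshifts. Genes with abundant mRNA in the germ line, such as those of translation factors, hnRNP proteins and chaperones, have the most copies. Because a young copy is nearly identical to its parent mRNA, a short read may match both places.

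Stretches of 100 bases inside 1 coding exon of the parent are shown for the copies with the most counts. Each was picked, among stretches aligned without gaps in every copy shown, for the most differences in the copy with the fewest. The stretches can therefore overstate how far a copy differs from its parent, and differences over all aligned bases are given for some copies. EEF1A1, the elongation factor that brings aminoacyl-tRNA to the ribosome, is given at chr6:73518165-73518264, minus strand (GRCh38). The stretch of EEF1A1P5 lies at chr9:133020515-133020614, plus strand, of EEF1A1P6 at chr7:22510872-22510971, minus strand, of EEF1A1P11 at chr1:96447959-96448058, plus strand, and of EEF1A1P13 at chr5:14652198-14652297, minus strand. Each sequence runs 5′ to 3′ along the transcript, and capitals mark bases of a copy that differ from the parent.
EEF1A1: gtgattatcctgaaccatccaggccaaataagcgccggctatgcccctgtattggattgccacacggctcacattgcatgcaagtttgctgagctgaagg
EEF1A1P5: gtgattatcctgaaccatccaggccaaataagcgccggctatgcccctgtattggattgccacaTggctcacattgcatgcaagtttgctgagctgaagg
EEF1A1P6: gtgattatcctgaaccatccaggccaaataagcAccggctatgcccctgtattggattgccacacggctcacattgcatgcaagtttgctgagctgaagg
EEF1A1P11: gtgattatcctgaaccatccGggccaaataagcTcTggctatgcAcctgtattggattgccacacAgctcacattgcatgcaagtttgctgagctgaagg
EEF1A1P13: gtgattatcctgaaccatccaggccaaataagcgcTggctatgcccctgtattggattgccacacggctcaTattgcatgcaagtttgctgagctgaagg
Over all aligned bases EEF1A1P5 differed from the parent mRNA at 4 bases and EEF1A1P6 at 7, against 38 in EEF1A1P11 and 26 in EEF1A1P13. The stretch of ITGB1, an integrin subunit, at chr10:32911494-32911593, minus strand, had 0 differences from ITGB1P1 at chr19:14622143-14622242, minus strand.
ITGB1: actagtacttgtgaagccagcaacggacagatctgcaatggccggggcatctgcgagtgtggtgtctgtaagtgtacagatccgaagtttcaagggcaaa
ITGB1P1: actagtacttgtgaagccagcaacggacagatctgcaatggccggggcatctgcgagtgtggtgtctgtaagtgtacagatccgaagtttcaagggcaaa
The copies of PPIA, cyclophilin A, a peptidyl-prolyl isomerase, were chosen for display after their values were seen. The parent's stretch lies at chr7:44799746-44799845, plus strand, and those of the copies at chr21:18858012-18858111, plus strand (PPIAP22), chr6:24976717-24976816, plus strand (PPIAP29), chr10:32188485-32188584, minus strand (PPIAP31), chr5:82009761-82009860, minus strand (PPIAP11) and chr14:68421862-68421961, minus strand (PPIAP6).
PPIA: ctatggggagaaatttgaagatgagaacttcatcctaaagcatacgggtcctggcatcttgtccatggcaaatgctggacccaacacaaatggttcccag
PPIAP22: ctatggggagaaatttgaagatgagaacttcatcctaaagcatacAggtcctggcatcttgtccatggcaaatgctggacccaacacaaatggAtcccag
PPIAP29: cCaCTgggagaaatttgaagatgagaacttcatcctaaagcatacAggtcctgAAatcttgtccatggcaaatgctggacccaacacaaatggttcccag
PPIAP31: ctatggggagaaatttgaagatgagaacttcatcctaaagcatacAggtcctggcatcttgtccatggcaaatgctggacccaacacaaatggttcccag
PPIAP11: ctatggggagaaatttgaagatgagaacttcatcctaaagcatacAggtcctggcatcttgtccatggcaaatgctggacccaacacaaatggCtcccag
PPIAP6: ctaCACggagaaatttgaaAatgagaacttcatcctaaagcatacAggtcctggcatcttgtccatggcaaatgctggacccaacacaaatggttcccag
The number of differing bases in this stretch was 2, 6, 1, 2 and 5 in that order. PPIAP22 differed from the parent at 2 bases over its whole aligned length and PPIAP6 at 26.

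Members were closer to a coding transcript than the pseudogenes with fewer counts. The best match of a member among the coding transcripts had a median identity of 97.3% (quartiles 95.5% and 98.6%). Among the pseudogenes under 20 counts it was 86.5% (80.2% and 91.7%) over the 8071 with a match. Members were also longer, with a median of 762 bases against 550.5. An identity of at least 95% was found in 77.4% of members and in 8.60% of the others. Every stretch of 75 bases, the length of a read, was then looked up in the genome and in the coding transcripts. In the median member 77.1% of these windows occurred at no other place, against 100% in the median of the others. For 24 members every window was its own, and for 19 members none was.

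**Figure D1:**
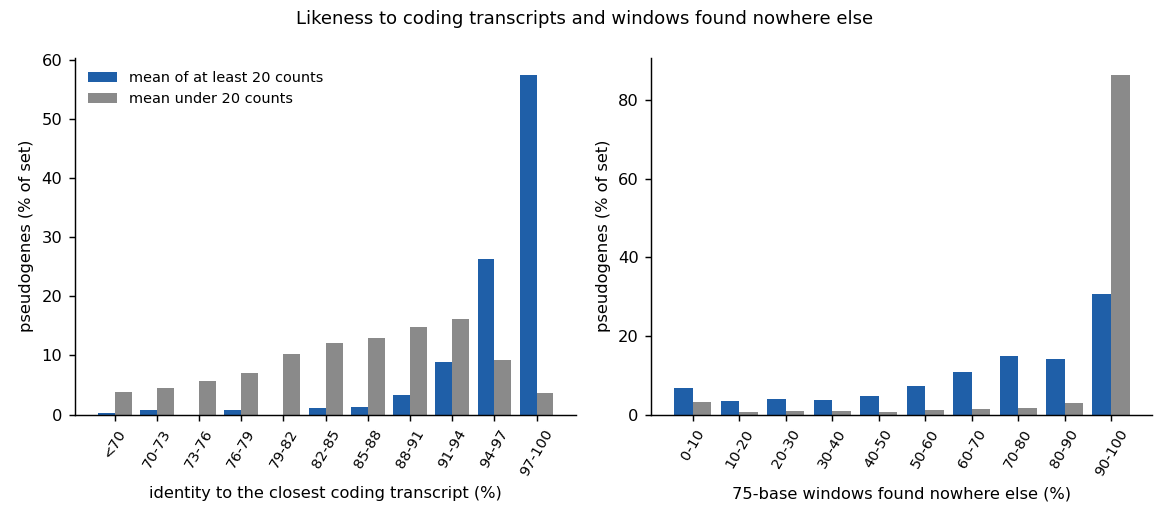
Left, percent identity of each processed pseudogene to its closest coding transcript (x axis, bins of 3 percentage points, the first holding all values under 70%), and right, percent of its 75-base windows that occur at no other place (x axis), each as percent of the set (y axis). Blue bars are the 385 members and grey bars the pseudogenes under 20 counts. Of the members 57.4% lie in the bin of 97 to 100% identity, against 3.63% of the others.

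Counts at identical places were equal. ENSG00000227120 and ENSG00000235959, a pair of members on chromosome 2 with the same 424 bases, each had 165, 175, 135 and 158 counts. Over the whole table there were 8 pairs of transcripts of at least 300 bases with the same sequence at separate places and a mean of at least 20 counts in both. In 6 pairs the counts were equal in every column and in the other 2 they differed by 1 at most. HNRNPA1P7 and HNRNPA1P10, which are close but not identical, also had like counts, with 5258, 5259, 3141 and 3197 in the former and 5178, 5165, 3134 and 3189 in the latter. Close copies were not always alike, as EEF1A1P5 and EEF1A1P6 below show. A count on a member is therefore a count of reads that match it, and not of reads that match no other place.

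The 385 members held 6.15% and 6.13% of the total in EtOH and 5.60% and 5.62% in HgCl2. The members with the most counts were 2 copies of EEF1A1. EEF1A1P5 (ENST00000436459, chromosome 9, between genes) had 117895, 117563, 97400 and 97285 counts. EEF1A1P6 (ENST00000434005, chromosome 7) had 55605, 55539, 34512 and 34468. Both were lower in the HgCl2 columns, and together they held 55.9% of the members' counts in each EtOH column and 49.9% and 49.7% in the HgCl2 columns. All other members were far lower. The median member had a mean of 85.25 counts, 31 members had at least 1000 and 126 had from 20 to under 50. All 385 had counts in every column, which the threshold on the mean did not require.

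**Figure D2:**
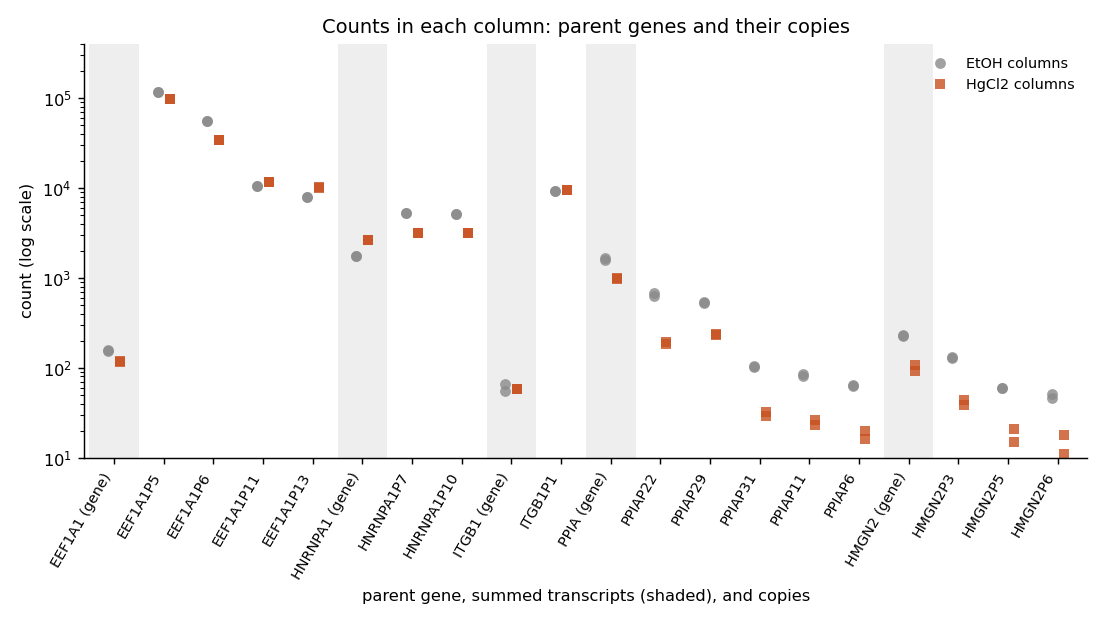
Counts in each of the 4 columns (y axis, log scale) for 5 parent genes, summed over their transcripts and shaded, and for copies of each (x axis). Grey circles are EtOH columns and orange squares HgCl2 columns. EEF1A1P5 lies between 97285 and 117895 counts while EEF1A1 itself lies between 117 and 156, and every PPIA and HMGN2 copy is lower in both HgCl2 columns.

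Between the groups the members were spread to both sides. At a log2 fold change of at least 1 in the edgeR fit, 55 members (14.3%) were higher in HgCl2 and 56 (14.5%) were lower. Among all 8624 fitted transcripts that reach the same mean count, 19.2% were higher and 12.2% lower. The median log2 fold change was 0.04 over the members and 0.22 over those transcripts. The split between higher and lower calls moved with the scaling, from 32.4% higher when only transcripts that reach this mean were fitted to 59.2% higher on log2(FPKM + 1), against 49.5% as reported. Over all transcripts of that mean there were 1323 higher and 1325 lower in the first of these settings, and 75.9% and 61.3% of calls were higher in the other two. Columns of different groups seldom overlapped in raw counts. Both HgCl2 counts lay above both EtOH counts in 152 members (39.5%) and below them in 191 (49.6%), against 48.6% and 41.5% of all these transcripts. Most calls lay on low counts. Of the 126 members with 20 to under 50 counts, 29 were higher and 27 lower (32.7% and 22.8% of all such transcripts). Of the 145 with 50 to under 200 counts, 19 were higher and 25 lower (18.5% and 10.2%), and of the 114 with at least 200 counts 7 were higher and 4 lower (4.65% and 2.03%). By exact 95% intervals, which cover counting error only, the change lay above 0 for 141 members and below 0 for 118, against 3797 and 2118 of the 8624 transcripts.

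**Figure D3:**
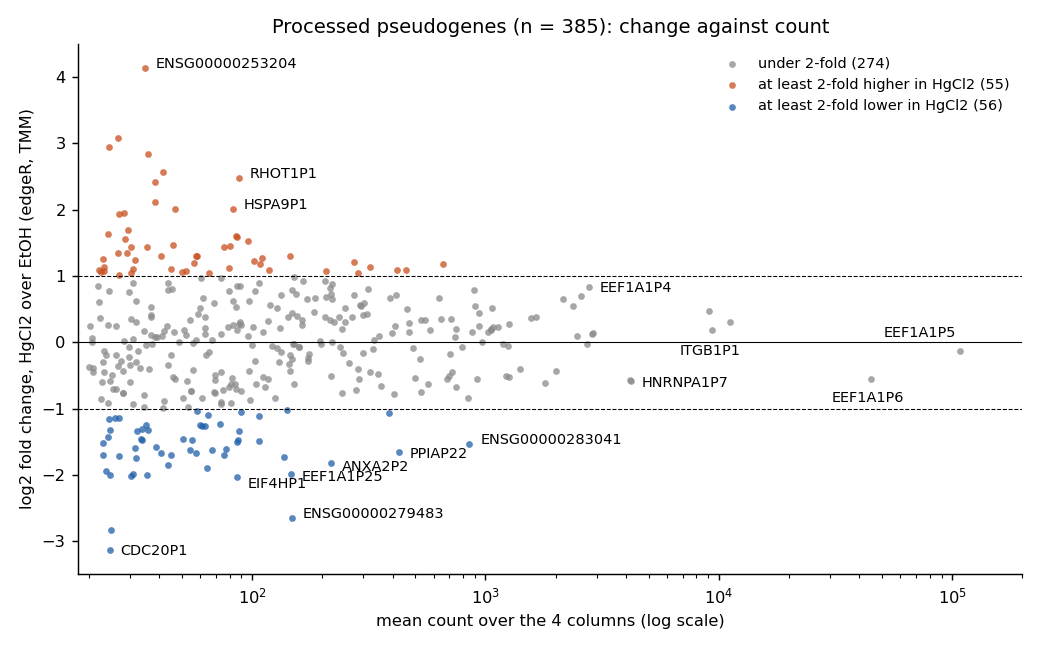
Log2 fold change of HgCl2 over EtOH (y axis) against the mean count (x axis, log scale) of the 385 members, 1 point each. Dashed lines mark a 2-fold difference, orange points the 55 members above it and blue points the 56 below it. The spread narrows with count, and past 1000 counts no member reaches 2-fold.

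The copies of translation genes numbered 32, with 2 at least 2-fold higher, 5 lower and a median of −0.05. Over all fitted transcripts of that mean count 19.2% were higher and 12.2% lower, the shares against which the lists below are given. A list holds only members whose symbol names a parent, so copies traced by sequence alone are in none. The 13 copies of EEF1A1 did not move as a block. EEF1A1P5 and EEF1A1P6 had log2 fold changes of −0.13 (95% interval −0.14 to −0.12) and −0.54 (−0.56 to −0.53). EEF1A1P11 had 10520, 10515, 11674 and 11802 counts (0.30, the log2 fold change of HgCl2 over EtOH, as in all such brackets). EEF1A1P13 had 8028, 7992, 10075 and 10126 (0.48) and EEF1A1P4 had 2136, 2085, 3413 and 3426 (0.84). These copies were higher in HgCl2. At the other end EEF1A1P25, inside an intron of PIK3CB on the opposite strand, had 226, 251, 51 and 58 counts (−1.98), EEF1A1P29 had −1.46 and EEF1A1P38 had −1.15. The direction of EEF1A1P5 depended on the scaling, with values from −0.33 to 0.05 over the alternatives. EIF2S2P4, a copy of the beta subunit of initiation factor eIF2, had 2921, 2865, 2836 and 2856 counts (0.12), and the 3 copies of EIF4B lay between −0.17 and 0.24. EIF4HP1, a copy of the helicase cofactor eIF4H, had 138, 143, 33 and 29 counts (−2.03). SERBP1P6, a copy of an mRNA-binding protein of the ribosome, had 215, 212, 440 and 412 (1.14), while SERBP1P5 had −0.83.

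Copies of genes for RNA-binding and splicing proteins numbered 38, with 4 higher, 5 lower and a median of 0.08, beside 19.2% higher and 12.2% lower over all transcripts. The 9 copies of HNRNPA1, a nuclear RNA-binding protein that takes part in splicing, ranged from −1.69 to 0.38. HNRNPA1P7 and HNRNPA1P10, the copies with the most counts, were lower in HgCl2 (−0.59 and −0.57), whereas HNRNPA1P35 and HNRNPA1P4 were higher (0.28 and 0.35). HNRNPA1P12 had 37, 35, 8 and 12 counts (−1.69). Among the 9 copies of NPM1, nucleophosmin, NPM1P27 had 1639, 1685, 1152 and 1136 counts (−0.40) and NPM1P6 had 997, 1025, 930 and 910 (0.01). The 3 copies of YBX1, a cold shock domain protein, all lay between −0.49 and −0.67. SNRPEP4, a copy of a core protein of the spliceosomal snRNPs, had 283, 289, 557 and 546 counts (1.09), and SNRPEP2 had 1.19. The 3 copies of SNRPG, another of these core proteins, lay between −0.84 and −0.09.

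Copies of chaperones and prolyl isomerases numbered 16, with 3 higher, 6 lower and a median of −0.05, beside 19.2% higher and 12.2% lower over all transcripts. All 5 copies of PPIA were at least 2-fold lower in HgCl2, as were 12.2% of all fitted transcripts of that mean count. PPIAP22 had 684, 636, 185 and 194 counts (log2 fold change −1.66, 95% interval −1.89 to −1.42) and PPIAP29 had 545, 530, 237 and 230 (−1.06). PPIAP31, PPIAP11 and PPIAP6 had −1.62, −1.62 and −1.67, with at most 105 counts in a column. PPIA itself had 1644, 1595, 971 and 987 counts over its transcripts, a log2 fold change of −0.58 (−0.70 to −0.47). Without the FPKM filter and on both FPKM scales 4 of the 5 copies were past 2-fold. In contrast, HSPA9P1, a copy of the mitochondrial Hsp70, had 35, 36, 130 and 130 counts (2.01), and HSPA5P1, a copy of the Hsp70 of the endoplasmic reticulum known as BiP, had 136, 150, 273 and 274 (1.08). The 3 copies of HSPD1, the mitochondrial chaperonin, had −0.75, 0.33 and −1.11. ST13, a cofactor of Hsp70 that the list did not hold, had 5 copies, all below 0. ST13P6 had 195, 196, 84 and 91 counts (−1.02) and ST13P4 had 88, 91, 25 and 26 (−1.66).

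Copies of chromatin genes numbered 12, with 1 higher, 3 lower and a median of −0.37, beside 19.2% higher and 12.2% lower over all transcripts. The 3 lower members were the 3 copies of HMGN2, a nucleosome-binding protein. HMGN2P3 had 132, 129, 44 and 39 counts (−1.51), HMGN2P5 had 60, 59, 21 and 15 (−1.58) and HMGN2P6 had 51, 46, 18 and 11 (−1.59). They stayed at least 2-fold lower under all 13 alternatives, and HMGN2 itself had 227, 232, 107 and 93 counts (−1.06). Of the copies of HMGB1, a DNA-bending protein, HMGB1P6 had 2283, 2241, 1351 and 1340 counts (−0.61), HMGB1P10 had −0.55, HMGB1P5 had −0.78 and HMGB1P24 had 0.62. HMGB1 itself had −0.08.

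Copies of cytoskeletal genes numbered 5, with 0 higher, 3 lower and a median of −1.32, beside 19.2% higher and 12.2% lower over all transcripts. ANXA2P2, a copy of annexin A2, had 344, 349, 89 and 88 counts (−1.82), and TMSB4XP8, a copy of thymosin beta-4, which binds actin monomers, had 107, 99, 27 and 23 (−1.89). Copies of nuclear genes for mitochondrial proteins numbered 14, with 2 higher and 3 lower, beside 19.2% higher and 12.2% lower over all transcripts. In this list copies of complex III subunits lay on opposite sides, with UQCRBP1 at 72, 66, 154 and 149 counts (1.28) and UQCRFS1P1 at −1.60. The only members of the redox and iron list were 6 copies of FTH1, the ferritin heavy chain. FTH1P5 had 56, 51, 105 and 105 counts (1.11) and FTH1P3 had 1.47, while FTH1P7, the copy with the most counts, had 414, 430, 274 and 273 (−0.48).

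Copies of signalling and transport genes numbered 17, with 2 higher and 2 lower, beside 19.2% higher and 12.2% lower over all transcripts. RHOT1P1, a copy of the mitochondrial GTPase Miro1, had 33, 25, 145 and 147 counts (2.47), the highest value among the 259 members with a mean of at least 50. The 5 copies of YWHAZ, a 14-3-3 protein, ranged from −0.19 to 0.62, and YWHAZP3 had 786, 758, 1025 and 1028 counts (0.55). The ubiquitin and proteasome list held 10 members, 1 higher and 1 lower. The lower was CDC20P1, a copy of the activator of the anaphase-promoting complex, with 48, 41, 5 and 4 counts (−3.13), the lowest of all members. The list of cell cycle and replication held 3 members with 0 past 2-fold, and that of glycolysis only LDHAP2, a copy of lactate dehydrogenase A, which was past 2-fold in the higher direction. Members closest to the glycolytic enzyme PGAM1, given below, carry no parent in their symbol and were past 2-fold in the lower direction.

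The 110 members without a parent in their symbol were traced by sequence. Of these, 24 matched ribosomal protein genes best, although the symbols of such copies had been left out. ENSG00000237550, with 99.8% identity to RPL9, had 2027, 2068, 2714 and 2691 counts (0.54), and ENSG00000279483, identical to RPL41 over its length, had 253, 265, 38 and 37 (−2.64). The latter was the lowest value among members with a mean of at least 50 counts. Without these 24 members 48 of the remaining 361 were higher and 54 lower, beside 19.2% and 12.2% over all transcripts. Other copies of named genes stood among the rest. ENSG00000283041, closest to the elongation factor EEF1G, had 1313, 1285, 395 and 420 counts (−1.53). It shares exonic bases with CHCHD3 on the same strand, which had 492, 485, 339 and 311 counts (−0.44). Whether reads of CHCHD3 were counted on it was not tested. HSP90AA2P, closest to HSP90AA1, had 183, 169, 372 and 366 (1.21). ENSG00000186076 and ENSG00000216285, both closest to the glycolytic enzyme PGAM1, had −1.72 and −1.48, and H3P6, identical to a stretch of the histone gene H3-3A, had 1137, 1129, 716 and 682 counts (−0.55). ENSG00000253204, closest to the sorting nexin SNX5, had 3, 5, 62 and 69 counts (4.13, 95% interval 2.76 to 6.11), the highest of all members.

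The parent genes were often counted lower than their copies. Of 178 parents named by symbol, 10 had 0 counts over all their transcripts, 55 had a mean under 20 and 103 had fewer counts than their copies together. For 52 parents the copies held over 10 times as many. EEF1A1 had 152, 156, 117 and 118 counts over its transcripts and ITGB1 had 55, 66, 58 and 58, while ITGB1P1 had 9172, 9183, 9396 and 9565. The number of transcripts that the table lists for a parent moved with this. The 6 parents with 1 transcript had a median of 5684 counts and each exceeded its copies, whereas the 172 parents with more had a median of 75.9 and 103 of them did not. How reads over the shared exons of such transcripts were counted was not stated in the sources used here, and its part in these levels was not tested. Levels of a parent and a copy are therefore not comparable.

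For the 123 parents with a mean of at least 20 counts, the log2 fold changes of parent and summed copies had the same sign in 77, with a Pearson correlation of 0.18 and a Spearman correlation of 0.19 across parents, which are not independent replicates and share the same libraries. Of the 30 parents whose summed copies differed 2-fold, 21 had the same sign. In 3 of those the parent was also past 2-fold, among them HMGN2 and HSPA9, the latter with 167, 180, 444 and 447 counts (95% interval 1.25 to 1.76 on the log2 scale). UQCRB lay on the other side of its copy, with 326, 344, 105 and 98 counts (−1.58). HNRNPA1 had 1742, 1768, 2619 and 2611 counts (0.72) against −0.39 for its copies together, and YWHAZ had 111, 127, 294 and 300 (1.46) against 0.35. Among the 20 parents with at least 3 copies, those of 6 (HMGN2, PPIA, RHOQ, SNRPG, ST13 and YBX1) all lay below 0, and 0 parents had all copies above 0.

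**Figure D4:**
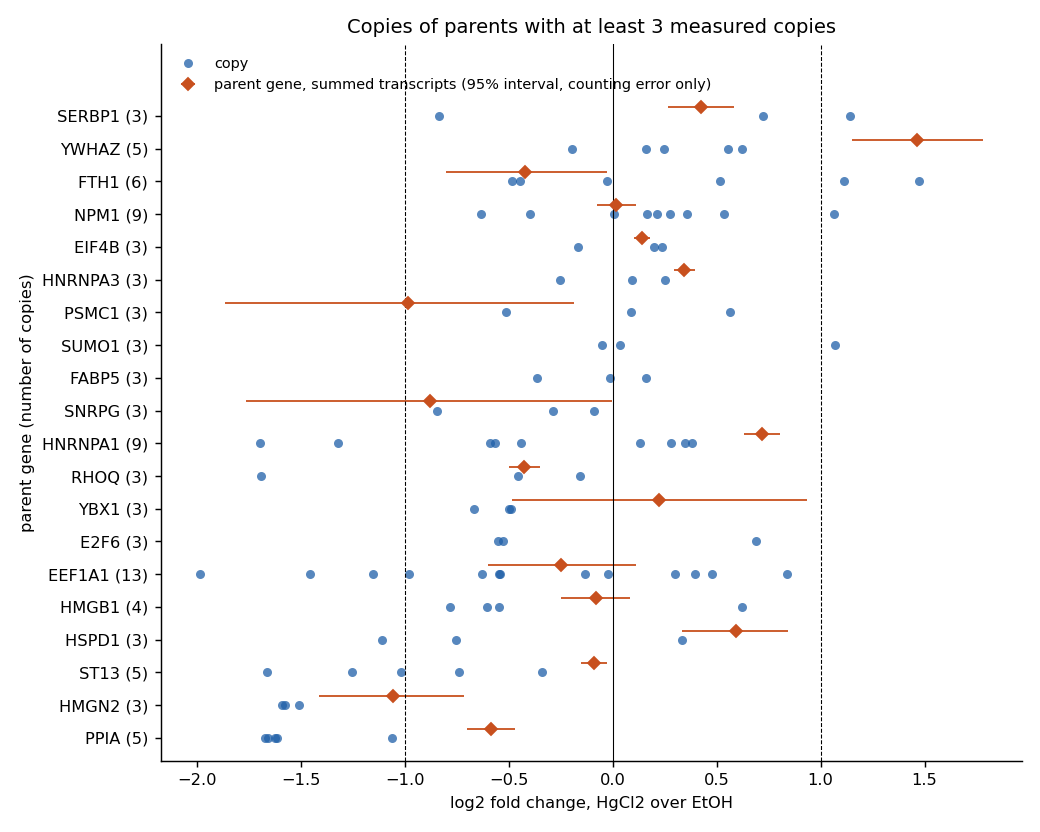
Log2 fold change of HgCl2 over EtOH (x axis) for each copy (blue) of the 20 parents with at least 3 members (y axis, number of copies in brackets), and for the parent gene (orange, summed transcripts, with its 95% interval for counting error) where its mean is at least 20 counts. The 5 PPIA and 3 HMGN2 copies lie left of −1, whereas the 13 EEF1A1 copies run from −1.98 to 0.84.

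Members were also grouped by how much of their sequence was their own. The 19 members with no window of their own had a median log2 fold change of −0.07 with 0 higher and 2 lower, and the 26 with up to 25% had −0.02 (3 higher, 3 lower). The 41 members with over 25 to 50% had −0.43 (1 higher, 5 lower) and the 90 with over 50 to 75% had −0.07 (10 higher, 19 lower). The 185 with over 75 to under 100% had 0.18 (32 higher, 22 lower) and the 24 with every window their own had 0.25 (9 higher, 5 lower). All these counts stand beside 19.2% higher and 12.2% lower over all transcripts of that mean. Their median counts also differed, from 418.75 in the class of over 25 to 50% to 41.4 in the last. Members of the last class included UQCRBP1 and EEF1A1P29, given above, and ENSG00000226532, closest to RPLP1, with 41, 50, 124 and 126 counts (1.60).

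By place, 178 members (46.2%) lay between genes, 106 (27.5%) inside an intron of a gene on the opposite strand, 75 (19.5%) inside an intron on the same strand and 26 (6.75%) shared exonic bases with another gene. Among the pseudogenes under 20 counts these shares were 52.4%, 24.0%, 16.1% and 7.52%. Members in introns of the same strand had 15 higher and 5 lower, those in introns of the opposite strand 10 higher and 16 lower, and those between genes 27 and 30, again beside 19.2% and 12.2% over all transcripts. Many hosts had fewer counts than the member. Of the 75 members in introns of the same strand 58 had more counts than the host's annotated transcripts together, and 19 of the hosts had 0 counts. Hosts were counted in the same way as parent genes, so levels of a host and a member are likewise not comparable. A host with 0 counts need not be silent. EEF1A1P6 lies in an intron of STEAP1B, which had 25, 30, 19 and 15 counts, and RHOT1P1 in one of ANKRD20A5P, which had 100, 112, 103 and 111 (0.16). PDCD5P1, a copy of a gene linked to apoptosis, had 41, 47, 105 and 110 counts (1.43) while its host AEBP2 had 217, 229, 222 and 214 (0.11). The study calls its sequencing directional but names a kit that does not mark strand, so reads of opposite strands may not be separable.

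At the threshold the values were near counting error. Just inside were FABP5P1 with 21, 26, 17 and 16 counts and C10orf88B with 17, 22, 23 and 19. Just outside were NSA2P2 with 27, 28, 12 and 12 and PAICSP4 with 25, 23, 17 and 13.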

How the data were processed

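RNA-seq of H1299 cells was read from a table of counts and a table of FPKM, whose columns were assigned to samples by name. Per the labels and methods, the authors used Trim Galore for trimming, STAR 2.5.4b for alignment to GRCh38 and Rsubread for the deposited counts per Ensembl transcript. The options of counting are not given in the sources used here. The deposited FPKM values were computed by the authors with DESeq2 1.26.0. Members with identical sequence have equal counts, so a read may be counted at several places.

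From the counts, log2 fold changes were computed with edgeR 4.0.16 (glmQLFit, TMM, R 4.3.3) over the 17547 transcripts whose group mean of FPKM exceeded 1 in either group. All 385 members passed this filter. Intervals are Clopper-Pearson at 95% from the mean counts. Types, names and coordinates are those of GENCODE 44, newer than the annotation the authors used, and 223558 of 227368 identifiers were found. Of the members 275 carry a parent in their symbol. Sequences were compared with blastn 2.17.0. This fit was tested on simulated data with columns drawn independently, unlike the columns here. That test checks the code and not the values reported. Totals per column lie between 4720978 and 5053120.

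Named members are the 15 with the most counts, the 10 highest and 10 lowest with a mean of at least 50 counts, and the leading copies of parents with at least 3 members. Others were named after their values were seen. The members, the 11 role lists by parent symbol and the rules were chosen with earlier results of these data known. Alternatives changed the filter, scaling, tool, pseudocount, replicate block, member rule and columns used.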

Additional observations from a re-analysis of the deposited data

How the results depend on the processing

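The numbers of members at least 2-fold higher and lower stayed within 1.5 times of 55 and 56 under other scalings, without the FPKM filter, with DESeq2 1.42.0 and on FPKM. A fit restricted to transcripts that reach 10 counts in all columns left 33 of 375 members higher and 65 lower. One restricted to a mean of 20 counts left 34 of 385 higher and 71 lower. Over all transcripts of that mean the first fit gave 939 higher and 1020 lower, and the second 1323 and 1325. In these fits the median difference from the reported log2 fold change, over all transcripts of that mean, was -0.17 and -0.20. Member rules of a mean of at least 10 counts gave 86 higher and 106 lower of 526, and of at least 50 counts 26 and 29 of 259. Counts summed per parent gave 23 and 25 of 178 parents. No share over all transcripts is given for these rules, so their counts are not comparable with 55 and 56. The share of all counts on members was 6.18% and 5.65% in EtOH and HgCl2 with the rule of 10 counts, 6.06% and 5.53% with that of 50, and 8.16% and 6.83% with the mitochondrial chromosome left out of the total. Without each column in turn, 52 to 56 members were higher and 55 to 62 lower, the median log2 fold change was -0.00 to 0.05, and the shares were 6.13% to 6.15% and 5.60% to 5.62%. With the replicate number as a block the values were 55, 56 and 0.04, and the block changed no call. The numbers pair nothing that the labels state. Chosen after the data were examined, leaving out members that match ribosomal protein genes gave 48 and 54, and keeping only members with at least 50% of their windows their own gave 51 and 46. Of 689 alternative values of the 53 named members 118 differed from the reported one by more than the mean arm of its counting interval. The sign turned for 9 named members, all under 2-fold: BZW1P2, EEF1A1P5, EEF1A1P19, EIF2S2P4, FABP5P7, HNRNPA3P6, ITGB1P1, RHOQP3 and SUMO1P3. Of the 23 among these 53 that were past 2-fold, 21 stayed so in every setting that fitted them. The others were SERBP1P6, at 0.94 in its lowest setting, and ST13P6, at −0.81 in its highest. The 10 highest and 10 lowest had been named for their values, which made this outcome likely. Members named only after their values were seen are not in this count, and some lay near 2-fold. Of the FTH1 copies 2 were higher as reported and 1 in both restricted fits. Of the HSPD1 copies 1 was lower as reported and 0 without the FPKM filter. Depth sets only the counting error: the median interval reaches 0.49 on the log2 scale to each side. With 1 sample a group, the spread between cultures was not measured and is not in these intervals.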
